A study of Mus musculus with 26 samples.

Results

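The transcripts described here encode the first signaling steps behind the T cell receptor. They are the kinases Lck, Fyn and Zap70, the adaptors Lat and Lcp2 (the SLP-76 protein), the enzymes Plcg1 and Rasgrp1, and the T cell proteins Themis and Tespa1. These 9 genes were chosen by symbol from the 46517 gene symbols of the deposited table, and all 9 were among the 16372 genes tested. Their RNA was measured in thymocytes of 3 TCR transgenic (TCRtg) lines, each sorted into 3 stages, in 26 libraries and 9 groups. OT-1 thymocytes have high self-reactivity and came from OT-1tg Rag2KO mice of strain C57/BL6. F5 thymocytes have intermediate self-reactivity and came from F5tg Rag1KO mice of the same strain. TG6 thymocytes have low self-reactivity and came from TG6tg H2b/d mice, a cross of C57/BL6 with B6.C-H2d/bByJ that still carries functional Rag genes, so that receptor chains other than the transgene can form. Mice were 3 to 10 weeks old according to the methods of the study. Each line carries 1 transgenic receptor. In comparisons with TG6, self-reactivity, the presence of functional Rag genes and MHC haplotype cannot be told apart. OT-1 and F5 share strain and Rag deficiency, through different Rag genes, and differ in the receptor. Early positive selection cells were CD4+CD8+CXCR4+CCR7-, late positive selection cells CD4+CD8+CXCR4-CCR7+, and mature CD8SP cells CD4-CD8+CXCR4-CCR7+. Every group had 3 libraries except TG6 late, which had 2. Nothing in the labels says that libraries of a group came from separate mice beyond the words biological replicate, so the errors measure the spread between these libraries.

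When a TCR binds self-peptide on MHC, Lck and Fyn phosphorylate the CD3 and zeta chains, and Zap70 docks on the phosphorylated chains and is activated there by Lck. Zap70 then phosphorylates Lat and Lcp2, which hold Plcg1 at the membrane. Plcg1 makes inositol trisphosphate, which opens calcium stores, and diacylglycerol, which recruits Rasgrp1 and so switches on Ras and the ERK kinases. Themis binds the phosphatases Shp1 and Shp2 and sets how strongly a thymocyte answers a weak ligand, and Tespa1 associates with Plcg1 and the inositol trisphosphate receptor. Loss of Lat, Lcp2 or Themis blocks or impairs thymocyte maturation in mice.

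The members lie apart from each other in the genome (GRCm38, coordinates from GENCODE vM21). The same annotation gave the exon lengths used for values per kilobase, whereas the values themselves are those deposited by the authors. Lck spans chr4:129548344-129573641 on the minus strand, Fyn chr10:39368855-39565381 on the plus strand and Zap70 chr1:36761798-36782818 on the plus strand. Lat spans chr7:126363824-126369570 on the minus strand and Lcp2 chr11:34046920-34092295 on the plus strand. Plcg1 spans chr2:160731300-160775760 on the plus strand and Rasgrp1 chr2:117279993-117343001 on the minus strand. Themis spans chr10:28668360-28883818 and Tespa1 chr10:130322870-130364111, both on the plus strand.

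Values are normalized counts. A gene was called at an adjusted p under 0.05 in limma across all genes tested. Totals per library lay between 16134786 and 18944173, and libraries of a group correlated at 0.95 to 0.978. T lineage transcripts (Cd3e, Cd3g, Cd3d, Cd8a and Cd8b1) summed to 40299 to 81193 in every library, beside summed markers of B cells of 108 to 284, myeloid cells of 31.7 to 280, dendritic cells of 14.6 to 167, NK cells of 0 to 48.6 (Ncr1 at 0 in all 26 libraries) and other alpha beta lineages (Zbtb7b, Zbtb16 and Foxp3) of 7.43 to 470, highest in OT-1 late. Some of these moved with the line. Early means in TG6, F5 and OT-1 were 11.6, 6.22 and 169 for Zbtb7b, 6.14, 2.15 and 43.2 for Siglech, 2.61, 1.94 and 33.0 for Itgax and 3.08, 1.85 and 27.0 for Csf1r, although the whole myeloid sum was 200 to 280 in TG6 early and 133 to 206 in OT-1 early. Other markers of the same lists went the other way between TG6 and OT-1. Their early means were 5.47, 2.43 and 3.03 for Zbtb46 and 220, 193 and 75.7 for Itgam. Thymic epithelial markers summed to 24.5 to 76.0, and erythroid markers to 31.5 to 1270. Cd4 had means of 8026 to 22113 in early cells, of 2507 in OT-1, 4087 in TG6 and 7935 in F5 late cells, and of 153 to 259 in mature cells. Late means of Ccr7 were 4641 in F5, 8052 in TG6 and 9570 in OT-1. The F5 late libraries differed among themselves. Replicates 1, 2 and 3 held 7609, 2698 and 3615 counts of Ccr7 and 5160, 10664 and 7981 of Cd4. Cxcr4 RNA did not follow the CXCR4 gate throughout: OT-1 mature cells, sorted as CXCR4-, had a mean of 2160 against 2022 in OT-1 early cells, sorted as CXCR4+, and in each line the mature mean was above the late one. Within the early gate Ccr7 had means of 147 in TG6, 198 in F5 and 779 in OT-1. In the same order of lines, early means were 89.7, 139 and 1894 for S1pr1 and 326, 608 and 1933 for Klf2. Those of Cd69 were 406, 624 and 1030, and those of Rag1, the gene knocked out in F5, 54642, 14083 and 5491. Late means of S1pr1 were 1150, 1054 and 9364 in that order. The lines were thus not alike in these stage markers within 1 gate. Neither knocked-out gene was at 0. Rag1 had 10835 to 16266 counts in F5 early cells, which are labelled Rag1KO, against 51114 to 58364 in TG6, and Rag2 had 176 to 291 counts in OT-1 early cells, which are labelled Rag2KO, against 2074 to 2529 in TG6. Which part of each gene is deleted is not given in the sources used here, so these counts do not check the labels. The T lineage sum was 70956 to 81193 in TG6 early and 40299 to 45332 in OT-1 early, a gap that lay in Cd8a (means of 38031 and 17780) and Cd8b1 (18978 and 7376), while Cd3e (5962 and 5052), Cd3g (6168 and 5813) and Cd3d (5773 and 6283) were closer. Of the gamma delta T cell markers, Trdc had early means of 1855 in TG6, 9389 in F5 and 7064 in OT-1, whereas Sox13 had 73.1, 30.5 and 2420, so that F5 was above TG6 in Trdc alone. The part of these differences in the results below was not tested. TG6 mature replicate 3 held 5265 counts of Rag1, against 696 and 620 in replicates 1 and 2, and 461 of Cd4, against 129 and 77.1. Its T lineage sum was 53005 against 77136 and 72550, and its gamma delta sum 3366 against 1686 and 1757. It was the lowest of its group for all 9 genes, and 43.9% of the genes tested were lowest there. Its median log2 difference from the mean of replicates 1 and 2 was -0.35 over the members and -0.02 over the genes tested. In sorted bulk populations, fewer cells of a type and less RNA per cell cannot be told apart.

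The promoters of Lck, Rasgrp1 and Themis are shown because these genes fell from the early to the mature stage in all 3 lines. Tespa1, which also fell, is named only. Each line gives the 250 bases before an annotated start, 5′ to 3′ on the strand of the gene, from RefSeq on GRCm38.p6. Capitals mark matches, on either strand, to AGGAAG (a form of the ETS core), TGTGGT (RUNX core) or CAGGTG (an E-box). A further ETS core (CCGGAA), a second E-box (CAGCTG), the TCF/LEF core (CTTTGA) and the GATA core (AGATAA) were also searched. Lck has a distal and a proximal start. The distal stretch lies at chr4:129573642-129573891, the proximal one at chr4:129558373-129558622, both on the minus strand. The Rasgrp1 stretch is chr2:117342878-117343127 on the minus strand, and that of Themis chr10:28668110-28668359 on the plus strand.
Lck distal: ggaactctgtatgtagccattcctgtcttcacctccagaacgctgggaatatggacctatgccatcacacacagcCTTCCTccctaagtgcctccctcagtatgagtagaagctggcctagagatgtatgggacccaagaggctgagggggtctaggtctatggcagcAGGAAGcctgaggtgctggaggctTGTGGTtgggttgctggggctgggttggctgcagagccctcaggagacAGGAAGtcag
Lck proximal: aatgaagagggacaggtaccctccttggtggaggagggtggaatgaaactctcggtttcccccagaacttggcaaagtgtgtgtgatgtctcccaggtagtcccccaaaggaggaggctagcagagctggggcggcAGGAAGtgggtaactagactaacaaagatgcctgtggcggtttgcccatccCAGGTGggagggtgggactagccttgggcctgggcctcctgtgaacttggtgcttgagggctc
Rasgrp1: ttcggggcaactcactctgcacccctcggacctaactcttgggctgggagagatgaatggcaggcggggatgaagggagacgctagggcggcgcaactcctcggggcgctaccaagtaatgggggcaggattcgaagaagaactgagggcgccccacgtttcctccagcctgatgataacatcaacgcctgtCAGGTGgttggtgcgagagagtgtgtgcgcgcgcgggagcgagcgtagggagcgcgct
Themis: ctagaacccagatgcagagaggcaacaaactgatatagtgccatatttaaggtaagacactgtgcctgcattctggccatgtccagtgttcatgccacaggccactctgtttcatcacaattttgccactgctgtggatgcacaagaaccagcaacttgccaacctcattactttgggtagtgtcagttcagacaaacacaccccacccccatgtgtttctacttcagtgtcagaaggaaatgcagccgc
The proximal Lck promoter is known to be active in thymocytes and the distal one in later T cells, but the table sums both starts into 1 value, so the results cannot be assigned to either. In the distal stretch 3 matches to AGGAAG and 1 to TGTGGT were found, and a CAGGTG lay at position 24 after the start. The proximal stretch had an AGGAAG at position -114 and a CAGGTG at -63. A CAGGTG at position -58 was the match in Rasgrp1. No motif of the search was found in the Themis stretch, which says only that these letters are not in this window. None of these motifs is rare. Of 32851 promoter windows of 300 bases (250 before and 50 after a start), 35.4% held AGGAAG, 20.2% CAGGTG and 16.8% TGTGGT, and the other motifs stood in 14.9% (CCGGAA), 16.3% (CAGCTG) and 11.2% (AGATAA), and in 5257 of the windows (CTTTGA). A match is a description, not a binding site.

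Most members differed between the line of highest and the line of lowest self-reactivity, and the direction depended on the gene. At the early stage OT-1 had less Themis, Plcg1, Lck and Lat than TG6, and more Fyn, Zap70 and Rasgrp1. That is 7 of 9 members called, against 27.8% of all genes tested. Of these early calls, Zap70 and Rasgrp1 were lost with scaling to the same total and with quantile normalization. At the late stage 6 of 9 were called (15.5% of all genes), and in mature cells 5 of 9 (9.74%). Among the 11016 genes with a mean of at least 50, a filter that all 9 members pass, the shares were higher. They were 36.5% early, 21.2% late and 13.2% in mature cells. The median log2 fold change of the members was -0.29, -0.26 and -0.15 at the 3 stages, beside -0.00, 0.00 and -0.01 over all genes. The groups did not overlap for 8, 9 and 4 members, as they did not for 46.7%, 52.1% and 21.7% of all genes. The mature calls are the least firm: none of the 5 was left without OT-1 mature replicate 2, without TG6 mature replicate 2, or in a fit of the 2 groups alone, and only 1 late call was left without TG6 late replicate 2. Without TG6 mature replicate 3, Lck, Lcp2, Plcg1 and Themis stayed called, Lat was added (adjusted p = 0.029) and Rasgrp1 was lost (adjusted p = 0.078). In that fit 4446 of all genes (27.2%) were called between mature OT-1 and TG6, in place of 1595. Between OT-1 and F5, 5 members were called early (12.7% of genes), 3 late (24.0%) and 4 in mature cells (23.3%). Between F5 and TG6 the members called were 3 (6.46%), 1 (4.97%) and 1 (6.64%). The plot of line differences shows this as a left shift of Lck, Plcg1 and Themis in OT-1.

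**Figure D1:**
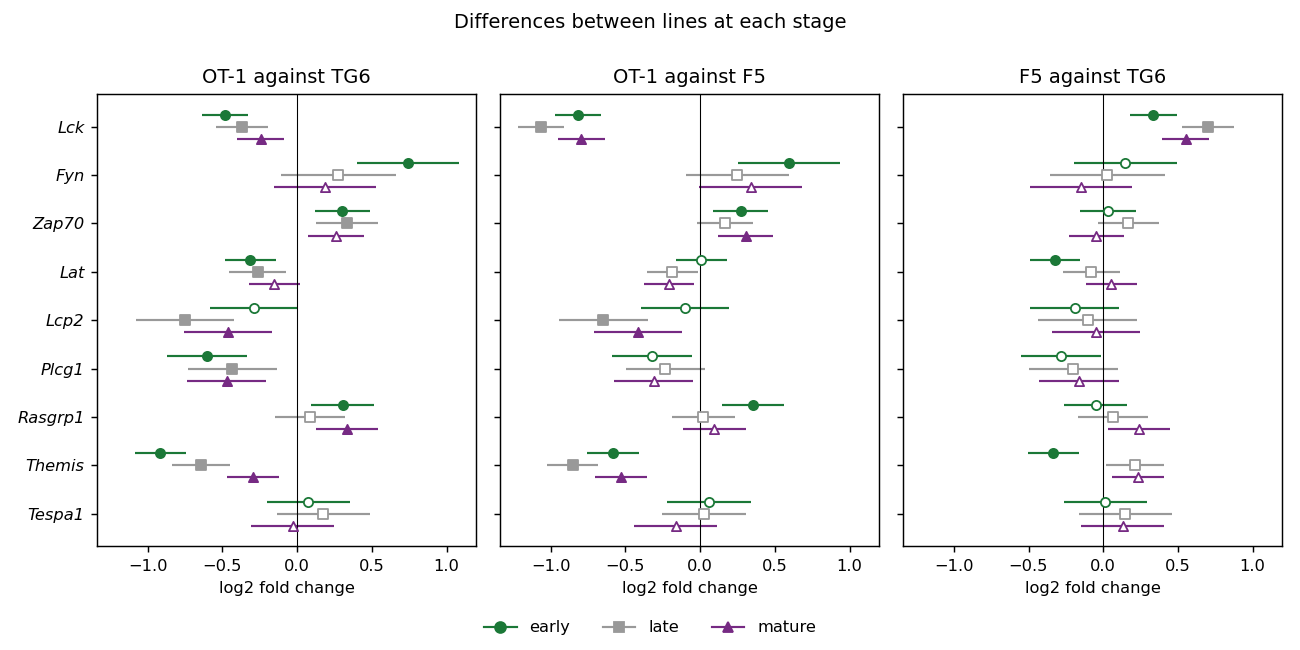
Log2 fold change (x axis) of the 9 members (rows) between lines, with 95% confidence intervals as bars; filled symbols passed the adjusted p threshold of 0.05, and color and shape mark the stage. Lck, Themis and Plcg1 lie left of 0 in OT-1 against TG6 at all 3 stages, Zap70 lies right of 0, and Tespa1 lies near 0 in every panel.

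Lck, the Src family kinase bound to CD4 and CD8, had the same order of the lines at every stage, with F5 highest and OT-1 lowest. At the early stage Lck had 30659, 32247 and 31881 counts in F5, 24738, 25897 and 24511 in TG6, and 17055, 17129 and 19679 in OT-1. At the late stage it had 31053, 31824 and 31826 in F5, 19167 and 19726 in TG6, and 15138, 13831 and 16360 in OT-1. In mature cells it had 22984, 21079 and 25147 in F5, 15937, 15828 and 15330 in TG6, and 13241, 12841 and 13692 in OT-1. No library of any line overlapped with another line at the same stage, so that the order did not follow self-reactivity, in which F5 stands between the other two.

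The difference in Lck between OT-1 and F5 was the strongest of the members. The log2 fold change was -0.82 early (SE 0.07, adjusted p = 1.0e-07), -1.07 late (2.09-fold lower in OT-1, adjusted p = 9.8e-10) and -0.80 in mature cells (adjusted p = 1.2e-07). F5 was above TG6 by 0.34 early (adjusted p = 0.0066), 0.70 late (adjusted p = 5.0e-06) and 0.55 in mature cells (adjusted p = 2.0e-05). The last call was lost in a fit of those 2 groups alone (adjusted p = 0.087). OT-1 was below TG6 by -0.48 early (adjusted p = 4.6e-05), -0.37 late (adjusted p = 0.0038) and -0.24 in mature cells (adjusted p = 0.04). Quantile normalization gave larger differences, of -0.72 early and -0.70 late (adjusted p = 3.0e-05 late). The late call was lost without TG6 late replicate 2 (adjusted p = 0.059). The mature call was lost without any 1 of the 3 OT-1 mature libraries or of TG6 mature replicates 1 and 2 (adjusted p 0.058 to 0.14), with no filter on low values, with no trend in the prior variance, and in a fit of the 2 groups alone (adjusted p = 0.26).

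Lck also fell as cells matured. From early to mature it changed by -0.67 in TG6 (adjusted p = 2.0e-07), by -0.46 in F5 (adjusted p = 9.2e-05) and by -0.43 in OT-1 (adjusted p = 1.4e-04). In F5 the early to late change was -0.00 (95% interval -0.16 to 0.16) and the late to mature change -0.46 (adjusted p = 1.2e-04). In TG6 the early to late fall was -0.36 (adjusted p = 0.002), and in OT-1 -0.25 (adjusted p = 0.016), a call lost without OT-1 late replicate 2 (adjusted p = 0.1) or OT-1 early replicate 3 (adjusted p = 0.11) and in a fit of the 2 groups alone (adjusted p = 0.095). TG6 fell further from late to mature, by -0.31 (adjusted p = 0.0096), a call lost without TG6 late replicate 2 (adjusted p = 0.094). In OT-1 the late to mature change of -0.19 missed the threshold (adjusted p = 0.073). Whether these single steps differed between lines was not tested. Over the whole course from early to mature the difference between lines was tested, and no pair was called for Lck (adjusted p 0.28 to 0.97).

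**Figure D2:**
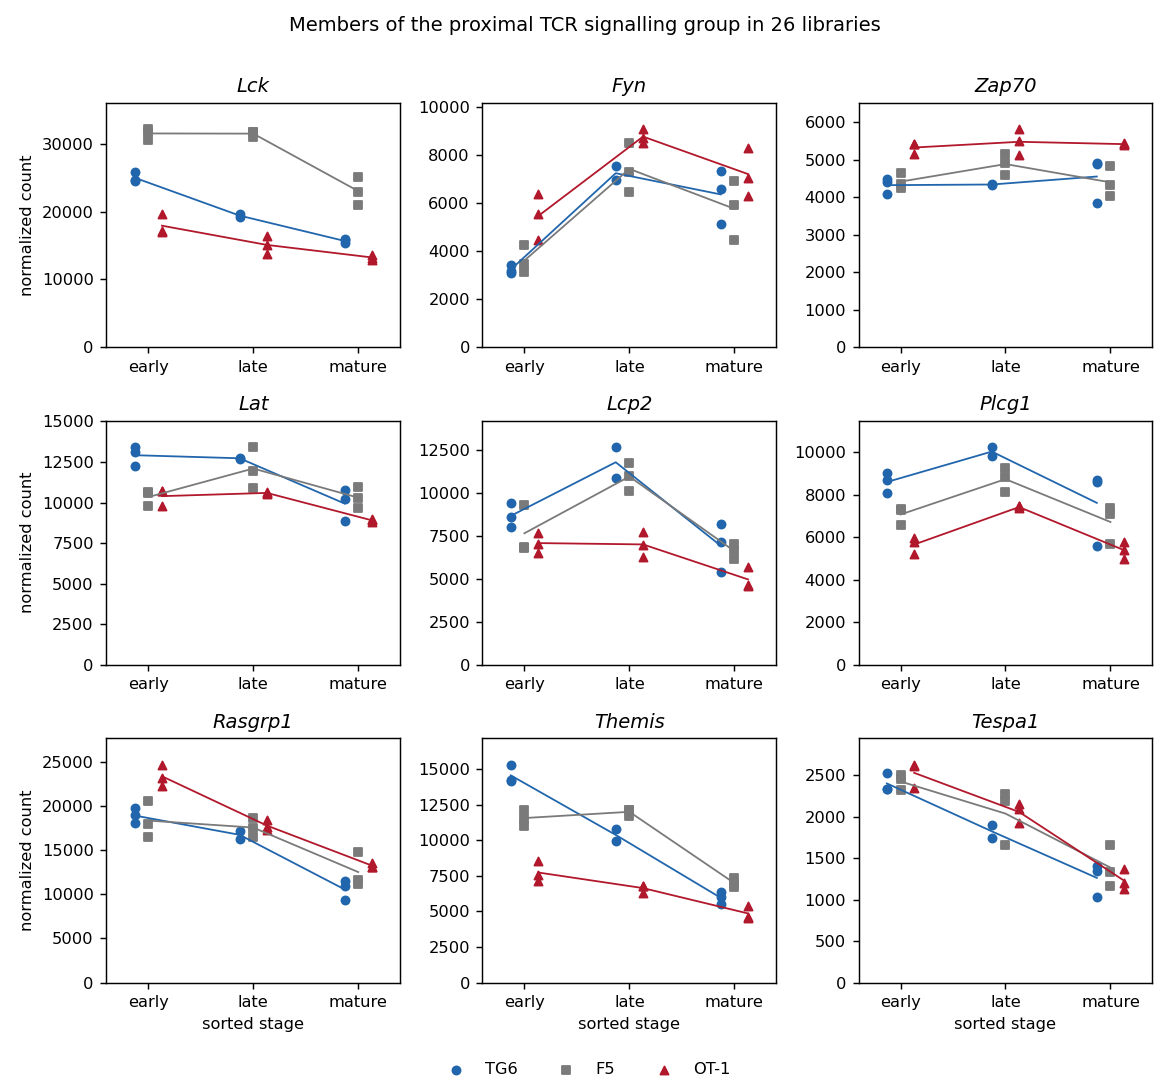
Normalized count (y axis, from 0) of each member in the 26 libraries by sorted stage (x axis); color and shape mark the line, points are libraries and lines join the group means. Lck is highest in F5 and lowest in OT-1 at each stage, Themis falls in TG6 from 14571 to 5962 on average, and Zap70 stays between 3855 and 5820 in all libraries.

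Fyn, the other Src family kinase of T cells, rose as cells left the early stage, and it was higher in OT-1 early. Over the same early to late step Lck fell in TG6 and OT-1 and held its level in F5. From late to mature the estimated changes of both genes were negative in every line. Early libraries held 3093, 3166 and 3422 counts in TG6, 4260, 3446 and 3106 in F5, and 5521, 6370 and 4457 in OT-1. Late libraries held 7528 and 6946 in TG6, 8478, 6471 and 7300 in F5, and 8697, 8510 and 9075 in OT-1. Every late library was above every early library of its line. Mature libraries held 7340, 6582 and 5140 in TG6, 6914, 4451 and 5906 in F5, and 7047, 8271 and 6286 in OT-1.

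From early to late Fyn rose 2.24-fold in TG6 (log2 fold change 1.17, SE 0.18, adjusted p = 4.1e-05), 2.06-fold in F5 (adjusted p = 4.7e-05) and 1.62-fold in OT-1 (adjusted p = 0.0027). In mature cells it was still above the early level in TG6 (0.96, adjusted p = 6.0e-05) and F5 (0.66, adjusted p = 0.0049, but 0.071 in a fit of the 2 groups alone), while in OT-1 the change of 0.41 missed the threshold (adjusted p = 0.076). It was called in OT-1 without OT-1 early replicate 2 (adjusted p = 0.039) and with a random block by replicate number (adjusted p = 0.024). From late to mature no line was called, although in F5, where replicate numbers pair the libraries, a block by replicate number gave -0.38 with adjusted p = 0.037, against 0.11 without the block. The same F5 step was called without F5 mature replicate 1 (-0.52, adjusted p = 0.035). At the early stage OT-1 was above TG6 by 0.74 (1.67-fold, adjusted p = 0.0017) and above F5 by 0.59 (adjusted p = 0.018). The difference from F5 was lost without F5 early replicate 2 or 3 or OT-1 early replicate 1 or 2 (adjusted p 0.059 to 0.12). In late cells every OT-1 library was above both TG6 libraries, and the difference of 0.28 (95% interval -0.11 to 0.66) missed the threshold (adjusted p = 0.33) but passed it in a fit of the 2 groups alone (adjusted p = 0.044). In mature cells the ranges overlapped, with a difference of 0.19 (-0.16 to 0.53).

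The balance of both Src kinases therefore shifted with stage and line. Per kilobase of exon, so that genes of unequal length can be compared, Lck exceeded Fyn 11.9 to 13.6 times in TG6 early libraries, 11.9 to 17.0 times in F5 early and 4.45 to 7.31 times in OT-1 early. In late cells the ratio was 4.22 and 4.70 in TG6, 6.07 to 8.15 in F5 and 2.69 to 2.99 in OT-1. In mature cells it was 3.60 to 4.94 in TG6, 5.51 to 7.84 in F5 and 2.57 to 3.61 in OT-1. The ratio was lowest in OT-1 at every stage, and in mature cells its range met that of TG6. It is a description built from values given above, with no test.

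**Figure D3:**
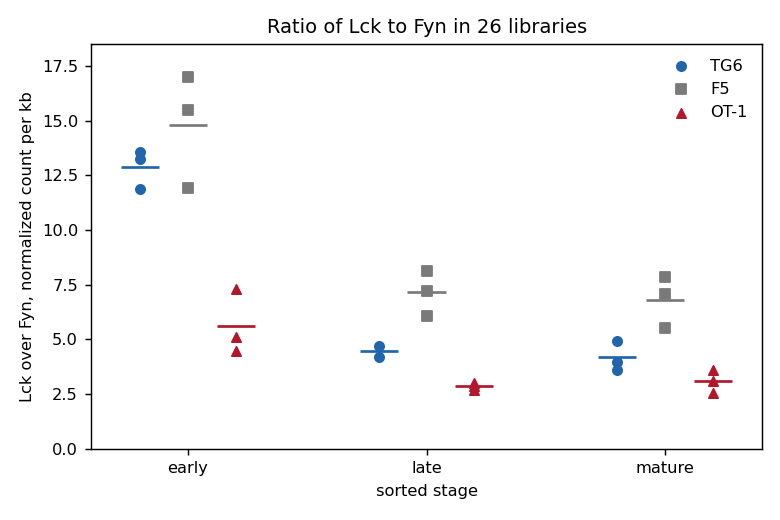
Ratio of Lck to Fyn, each as normalized count per kilobase of exon (y axis, from 0), by sorted stage (x axis) for the 3 lines; points are libraries and bars are group means. Early means are 12.9 in TG6, 14.8 in F5 and 5.63 in OT-1, and late means 4.46, 7.15 and 2.85.

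Zap70, the kinase that carries the signal from the phosphorylated receptor to the adaptors, changed least. Its highest group mean was 1.27 times its lowest, and no line was called between any pair of stages (adjusted p 0.24 to 0.97). OT-1 libraries held 5144, 5411 and 5424 counts early, 5820, 5123 and 5495 late and 5422, 5380 and 5448 mature. TG6 libraries held 4474, 4416 and 4077 early, 4354 and 4324 late, and 4925, 4877 and 3855 mature, and F5 libraries lay between 4031 and 5158. OT-1 stood above every TG6 library at each stage. The difference was 0.30 early (adjusted p = 0.013), 0.33 late (adjusted p = 0.023) and 0.26 in mature cells, which missed the threshold (adjusted p = 0.064). Against F5 it was 0.27 early (adjusted p = 0.045) and 0.30 in mature cells (adjusted p = 0.016).

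These small Zap70 differences depend on how libraries are scaled. When every library was scaled to the same total, the median log2 fold change of all genes lay at -0.11, -0.13 and -0.10 in OT-1 against TG6 (-0.00, 0.00 and -0.01 before), and Zap70 was called in none of the comparisons: it differed from TG6 by 0.19 early (adjusted p = 0.15) and 0.20 late (adjusted p = 0.24), and from F5 by 0.17 early (adjusted p = 0.27) and 0.16 in mature cells (adjusted p = 0.25). Quantile normalization lost the same calls (adjusted p 0.12 to 0.19). The early call against TG6 was also lost without TG6 early replicate 3 (adjusted p = 0.059), and the late one without OT-1 late replicate 1 or 3 or either TG6 late library (adjusted p 0.051 to 0.14). Against F5, the early call was lost without F5 early replicate 2 or 3 or any OT-1 early library (adjusted p 0.074 to 0.16), and the mature call without F5 mature replicate 2 (adjusted p = 0.065).

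Lat, the membrane adaptor that Zap70 phosphorylates, was lower in OT-1 and F5 than in TG6 at the early stage and fell in mature cells. Early libraries held 12270, 13392 and 13087 counts in TG6, 10578, 9799 and 10637 in F5, and 9764, 10709 and 10707 in OT-1. All TG6 values lay above those of the other two lines, whose ranges overlapped. The log2 fold change against TG6 was -0.31 in OT-1 (adjusted p = 0.0057) and -0.32 in F5 (adjusted p = 0.016). The F5 call was lost without F5 early replicate 2, TG6 early replicate 2 or TG6 early replicate 3 (adjusted p 0.064 to 0.089). In late cells OT-1 was called at the edge of the threshold (-0.26, adjusted p = 0.049), and the call was lost without any 1 of the 5 libraries (adjusted p 0.091 to 0.21). Lat depended on scaling in the other direction from Zap70 and Rasgrp1: with libraries scaled to the same total the late difference was -0.40 (adjusted p = 0.0031). Quantile normalization made it -0.47 (adjusted p = 5.2e-04) and the early one -0.49 (adjusted p = 4.8e-05). OT-1 against F5, not called in mature cells (-0.21, adjusted p = 0.064), was called under both (-0.35 and -0.39, adjusted p = 0.0029 and 8.7e-04), as it was in late cells (-0.26 and -0.28, adjusted p = 0.018 and 0.01). Mature OT-1 and TG6 differed by -0.15 (adjusted p = 0.23), or by -0.24 without TG6 mature replicate 3 (adjusted p = 0.029) and by -0.28 with quantile normalization (adjusted p = 0.024).

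Over the stages Lat held its level into the late stage in TG6, with 12704 and 12748 counts, and then fell to 10763, 10201 and 8847 in mature cells. The early to mature change in TG6 was -0.38 (adjusted p = 6.3e-04), and the late to mature part of it -0.36 (adjusted p = 0.0055, or 0.051 without TG6 late replicate 2). OT-1 mature libraries held 8974, 8936 and 8800 counts. The early to mature change in OT-1 was -0.22 (adjusted p = 0.049) and was lost without any 1 of the OT-1 mature libraries or OT-1 early replicate 2 or 3 (adjusted p 0.097 to 0.14). The late to mature change in OT-1 was -0.25 (adjusted p = 0.026) and was lost without any 1 of its 6 libraries (adjusted p 0.054 to 0.071). In F5, Lat rose from early to late by 0.22 (adjusted p = 0.044) and fell from late to mature by -0.23 (adjusted p = 0.047), so that early and mature cells differed by -0.01 (95% interval -0.18 to 0.16). The rise was lost without F5 late replicate 1 or 3 or any F5 early library (adjusted p 0.064 to 0.22), and the fall without F5 mature replicate 1 or 2 or F5 late replicate 1 or 3 (adjusted p 0.086 to 0.22). Without F5 late replicate 1 the rise was 0.14 and the fall -0.15, and quantile normalization lost both (0.16 and -0.21, adjusted p = 0.13 and 0.054). F5 and TG6 differed in their early to mature change of Lat by 0.38, which missed the threshold (adjusted p = 0.063) but passed it with the block by replicate number (adjusted p = 0.016), without F5 mature replicate 2 (adjusted p = 0.042), without TG6 mature replicate 1 (adjusted p = 0.038), and under both other scalings (same total, adjusted p = 0.025; quantile, 0.0093).

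Lcp2, the cytosolic adaptor that joins Plcg1 to Lat, peaked in late cells of TG6 and F5 but not of OT-1. It went from 9417, 8566 and 7979 counts early to 10871 and 12668 late in TG6, and from 6849, 9310 and 6772 to 10073, 11754 and 10991 in F5. In OT-1 it went from 6510, 7031 and 7677 to 6990, 6252 and 7745, and these ranges overlapped. Late OT-1 libraries all lay below the late libraries of both other lines. The rise was 0.44 in TG6 (adjusted p = 0.041) and 0.53 in F5 (adjusted p = 0.0067), against -0.02 in OT-1 (95% interval -0.31 to 0.28). The TG6 rise was lost without either TG6 late library or TG6 early replicate 2 or 3 (adjusted p 0.063 to 0.31). Whether the rise itself differed between lines was not tested.

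Late Lcp2 in OT-1 was below TG6 by -0.75 (adjusted p = 0.002, or 0.058 without TG6 late replicate 2) and below F5 by -0.65 (adjusted p = 0.0016). Mature libraries held 8186, 7160 and 5417 counts in TG6, 6162, 6994 and 6667 in F5, and 4558, 4661 and 5672 in OT-1. The fall from late to mature was -0.78 in TG6 (adjusted p = 9.5e-04), -0.73 in F5 (adjusted p = 6.3e-04) and -0.50 in OT-1 (adjusted p = 0.013), the last being lost without OT-1 mature replicate 1 or 2 or OT-1 late replicate 3 (adjusted p 0.051 to 0.06). From early to mature, OT-1 fell by -0.51 (adjusted p = 0.0091), while the TG6 change of -0.34 missed the threshold (adjusted p = 0.065). Without TG6 mature replicate 1 the TG6 change was -0.47 (adjusted p = 0.017), and without TG6 mature replicate 3 it was -0.17 (adjusted p = 0.36). Scaling to the same total (-0.43, adjusted p = 0.034) and quantile normalization (-0.45, adjusted p = 0.029) also called it. In mature cells OT-1 was lower than TG6 by -0.47 (adjusted p = 0.038), a call lost without OT-1 mature replicate 1 or 2 or TG6 mature replicate 1 or 2 (adjusted p 0.13 to 0.24), and lower than F5 by -0.42 (adjusted p = 0.035), a call lost without OT-1 mature replicate 1 or 2 or F5 mature replicate 2 or 3 (adjusted p 0.088 to 0.12). At the early stage the OT-1 and TG6 difference was -0.29 (adjusted p = 0.13), but was called with quantile normalization (-0.43, adjusted p = 0.048) and in a fit of the 2 groups alone (adjusted p = 0.044). Lcp2 shares 6.73% of its exon bases with 4930469K13Rik on the opposite strand, and the strand setting of the counting is not given in the sources used here.

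Plcg1, the phospholipase that makes both second messengers, was lower in OT-1 than in TG6 throughout. Early libraries held 8706, 9024 and 8058 counts in TG6, 7323, 7290 and 6593 in F5, and 5983, 5216 and 5773 in OT-1. Late libraries held 9804 and 10254 in TG6, 8138, 8826 and 9233 in F5, and 7448, 7361 and 7447 in OT-1. At both stages the lines did not overlap and stood in the inverse order of their self-reactivity. Mature libraries held 8673, 8577 and 5598 in TG6, 7105, 5685 and 7361 in F5, and 5782, 4978 and 5411 in OT-1, so that TG6 mature replicate 3 fell within the OT-1 range.

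OT-1 differed from TG6 in Plcg1 by -0.60 early (adjusted p = 0.0011), -0.43 late (adjusted p = 0.04) and -0.47 in mature cells (adjusted p = 0.02). The late call was lost without any 1 of the 5 libraries (adjusted p 0.072 to 0.22) and the mature call without OT-1 mature replicate 2 or TG6 mature replicate 1 or 2 (adjusted p 0.094 to 0.14). F5 lay between both without being called against either (adjusted p 0.079 to 0.57), although F5 against TG6 in mature cells was called without TG6 mature replicate 3 (-0.37, adjusted p = 0.017) and OT-1 against F5 without F5 mature replicate 2 (-0.43, adjusted p = 0.023). Scaling to the same total called OT-1 below F5 early (-0.42, adjusted p = 0.044) and in mature cells (-0.45, adjusted p = 0.02), as did quantile normalization (adjusted p = 0.032 and 0.026). From early to late Plcg1 rose in OT-1 by 0.39 (adjusted p = 0.024), a call lost without any OT-1 late library or OT-1 early replicate 2 or 3 (adjusted p 0.05 to 0.098). The F5 rise of 0.30 missed the threshold (adjusted p = 0.079), but passed it with the block by replicate number (adjusted p = 0.032). From late to mature it fell in TG6 (-0.42, adjusted p = 0.034), F5 (-0.39, adjusted p = 0.033) and OT-1 (-0.46, adjusted p = 0.01). The TG6 fall was -0.22 without TG6 mature replicate 3 (adjusted p = 0.19) and was also lost without either TG6 late library (adjusted p 0.11 to 0.19), and the F5 fall without F5 mature replicate 2 or F5 late replicate 2 or 3 (adjusted p 0.081 to 0.2). Plcg1 shares 4.41% of its exon bases with the antisense gene Gm27206.

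Rasgrp1, the diacylglycerol-dependent activator of Ras, fell with maturation in all 3 lines. In OT-1 it went from 24686, 23170 and 22215 counts early through 18417, 17666 and 17236 late to 13048, 13140 and 13543 mature, with no overlap between stages. In TG6 it went from 19723, 18021 and 18990 through 17180 and 16273 to 11460, 10881 and 9302, also without overlap. In F5 it went from 20550, 17979 and 16490 through 18603, 17531 and 16510 to 14821, 11596 and 11110, and there the early and late ranges overlapped. The early to mature change was -0.85 in TG6 (adjusted p = 5.3e-07), -0.56 in F5 (adjusted p = 2.7e-04, or 0.053 in a fit of the 2 groups alone) and -0.82 in OT-1 (adjusted p = 2.3e-06). Most of the fall came after the late stage in TG6 (-0.67, adjusted p = 1.6e-04) and F5 (-0.50, adjusted p = 8.8e-04), while in OT-1 the steps were -0.39 (adjusted p = 0.0053) and -0.42 (adjusted p = 0.0038).

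Early OT-1 libraries had more Rasgrp1 than all early TG6 and F5 libraries, by 0.30 (adjusted p = 0.027) and 0.35 (adjusted p = 0.021), and mature OT-1 had more than TG6 by 0.33 (adjusted p = 0.037). These calls were lost when libraries were scaled to the same total, which gave 0.20 (adjusted p = 0.14), 0.25 (adjusted p = 0.084) and 0.24 (adjusted p = 0.11), and with quantile normalization, which gave 0.05 (adjusted p = 0.72), 0.12 (adjusted p = 0.46) and 0.20 (adjusted p = 0.18). The early call against TG6 was lost without OT-1 early replicate 1 or 2 or TG6 early replicate 2 or 3 (adjusted p 0.055 to 0.1), and that against F5 without F5 early replicate 2 or 3 or OT-1 early replicate 1 or 2 (adjusted p 0.06 to 0.13). The mature call was lost without any OT-1 mature library or TG6 mature replicate 2 or 3 (adjusted p 0.078 to 0.098).

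Themis gave the largest difference between OT-1 and TG6 at the early stage among the 9 members. TG6 early libraries held 14160, 14218 and 15334 counts, F5 early libraries 11033, 12151 and 11525, and OT-1 early libraries 7551, 7123 and 8552. The 3 lines did not overlap and stood in the inverse order of self-reactivity. Late libraries held 10805 and 9961 in TG6, 11730, 12126 and 12169 in F5, and 6819, 6320 and 6793 in OT-1, so that F5 was then highest. Mature libraries held 6375, 6005 and 5504 in TG6, 6901, 6700 and 7380 in F5, and 4569, 4594 and 5419 in OT-1. OT-1 stayed lowest, and F5 stayed above TG6.

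OT-1 had 1.89-fold less Themis than TG6 early (log2 fold change -0.92, SE 0.08, adjusted p = 3.3e-08) and 1.56-fold less late (-0.64, adjusted p = 3.2e-05). In mature cells the difference was -0.30 (adjusted p = 0.025), a call lost without OT-1 mature replicate 1 or 2 or TG6 mature replicate 1 or 2 (adjusted p 0.088 to 0.14) and in a fit of the 2 groups alone (adjusted p = 0.27). Against F5, OT-1 was lower by -0.58 early (adjusted p = 3.6e-05), -0.85 late (adjusted p = 1.1e-07) and -0.53 in mature cells (adjusted p = 8.8e-05), and these 3 calls held under every alternative tried. F5 was below TG6 early (-0.33, adjusted p = 0.015, lost without F5 early replicate 1 or TG6 early replicate 3 with adjusted p = 0.077 and 0.082). Later F5 differed from TG6 by 0.21 (late, adjusted p = 0.25) and 0.23 (mature, adjusted p = 0.1).

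Themis fell most in TG6. Its early to mature change was -1.29 there (2.45-fold, adjusted p = 4.0e-11), -0.73 in F5 (adjusted p = 9.1e-07) and -0.67 in OT-1 (adjusted p = 2.4e-06). In TG6 it had already fallen by the late stage (-0.49, adjusted p = 3.1e-04), where F5 changed by 0.05 (95% interval -0.12 to 0.23) and OT-1 by -0.22 (adjusted p = 0.054, but 0.032 without OT-1 early replicate 2 and 0.034 with quantile normalization). The late to mature falls were -0.80 in TG6 (adjusted p = 2.3e-06), -0.78 in F5 (adjusted p = 9.8e-07) and -0.45 in OT-1 (adjusted p = 3.8e-04). The early to mature change itself differed between OT-1 and TG6 by 0.62 (SE 0.12, adjusted p = 0.0021), the 1 member so called against 4.20% of all genes, and between F5 and TG6 by 0.56 (adjusted p = 0.0055), again the 1 member called against 4.40%. Both of these contrasts share the TG6 libraries, and both calls held under every alternative tried. Between OT-1 and F5 the difference was 0.05 (95% interval -0.19 to 0.30). There limma called 0 of 9 members (1.64% of all genes were called), and 0 had an unadjusted p under 0.05. Themis shares 2.72% of its exon bases with the pseudogene 4930519F09Rik.

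Tespa1, a protein of the calcium branch of the pathway, fell with maturation in all 3 lines, and its lines were not called apart. Early libraries held 2530, 2337 and 2333 counts in TG6, 2318, 2500 and 2453 in F5, and 2614, 2341 and 2628 in OT-1, with overlapping ranges. Mature libraries held 1406, 1342 and 1037, 1333, 1160 and 1662, and 1195, 1123 and 1365 in the same lines. Late libraries ran from 1659 to 2267, below the early libraries of their line. The early to mature change was -0.94 in TG6 (adjusted p = 6.3e-06), -0.82 in F5 (adjusted p = 8.2e-05) and -1.04 in OT-1 (adjusted p = 3.9e-06). The late to mature part was -0.54 in TG6 (adjusted p = 0.011), -0.56 in F5 (adjusted p = 0.004) and -0.75 in OT-1 (adjusted p = 3.1e-04), and the TG6 call was lost without TG6 mature replicate 3 (adjusted p = 0.06) or TG6 late replicate 1 (adjusted p = 0.11). No difference between lines was called for Tespa1. OT-1 against TG6 gave 0.07 early (95% interval -0.20 to 0.35), 0.17 late (-0.14 to 0.48) and -0.03 in mature cells (-0.31 to 0.25).

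Counted over the members, the step from late to mature was one of falls. In TG6 and in F5, 7 of 9 members fell, and in OT-1, 6 of 9, where 22.3%, 20.5% and 24.4% of all genes were called in either direction and 7.79%, 8.31% and 10.4% fell. Those that fell in all 3 lines were Lat, Lcp2, Plcg1, Rasgrp1, Themis and Tespa1. From early to late, 4, 3 and 4 members were called in TG6, F5 and OT-1, against 25.4%, 26.7% and 26.7% of all genes. From early to mature 6, 5 and 6 were called, against 34.6%, 19.6% and 23.2%. In a fit of the 2 groups alone, the late to mature count dropped to 1 in TG6 (Themis) and 2 in F5 (Lcp2 and Themis), with adjusted p of 0.061 to 0.31 and 0.059 to 0.26 for the calls lost. Without TG6 late replicate 2 the TG6 count was 4.

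**Figure D4:**
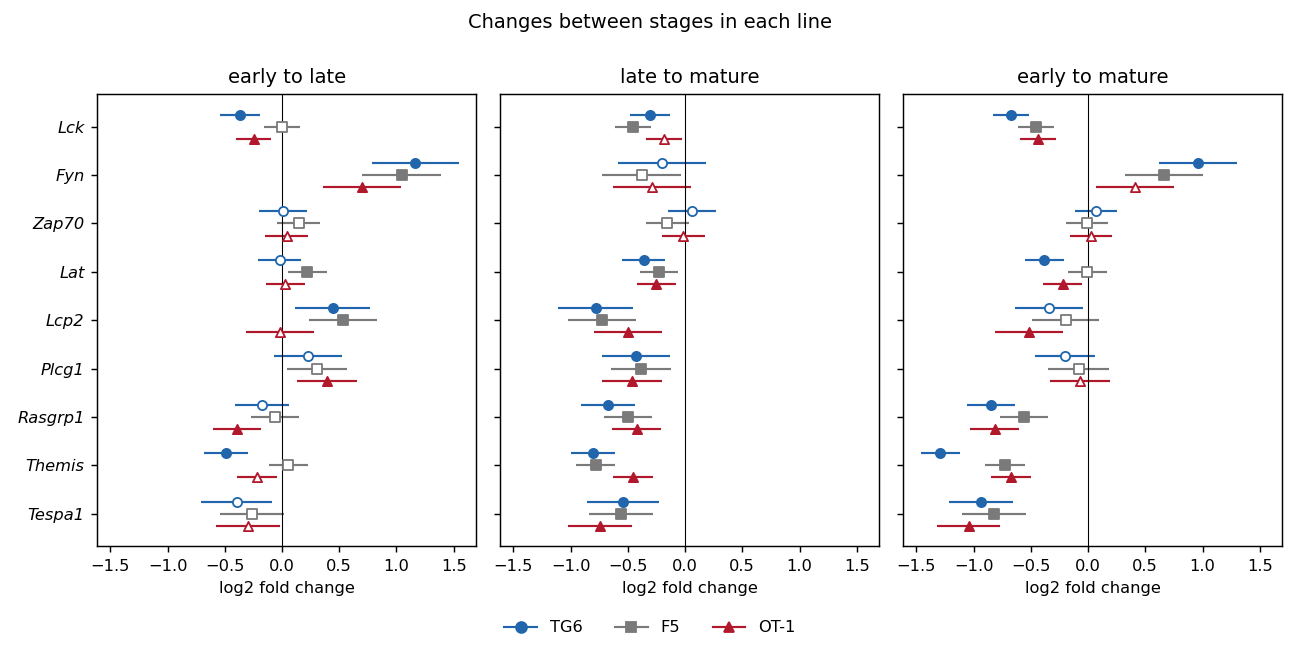
Log2 fold change (x axis) of the 9 members (rows) between stages, with 95% confidence intervals as bars; filled symbols passed the adjusted p threshold of 0.05, and color and shape mark the line. Fyn lies right of 0 from early to late in all 3 lines, and the late to mature panel has Lat, Lcp2, Plcg1, Rasgrp1, Themis and Tespa1 left of 0 in all 3.

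On the per-kilobase scale Lat and Lck were the most abundant members in every group. Lat had a mean level from 7151 (OT-1 mature) to 10374 (TG6 early) counts per kilobase, and Lck from 5722 (OT-1 mature) to 13637 (F5 early). Rasgrp1 came next in all groups but TG6 mature, where Zap70 did, at 2028 against 2016 for Rasgrp1. The least abundant member was Fyn in TG6 and F5 early cells, at 841 and 939, Plcg1 in OT-1 early cells, at 1005, and Tespa1 in all late and mature groups, from 624 to 1045.

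Over the 26 libraries the members fell into patterns that are given as description only, since libraries of a group share line, stage and scaling. Rasgrp1 and Tespa1 ran together (Pearson r 0.858), as did Themis and Lck (0.844), Lcp2 and Plcg1 (0.807) and Themis and Lat (0.790). Fyn ran against Themis (-0.565) and Lck (-0.512). Among the 9905 genes compared, with a mean of at least 100, those most like Themis were Kdm3b (0.980), which encodes a histone demethylase, Fam65a (0.967) and Fas (0.967), the death receptor. Those most like Lck were Lrrc1 (0.925), Stk25 (0.924) and Wls (0.923), and those most like Fyn were Fam102a (0.964), Ssh2 (0.962) and Pacsin1 (0.949). Rasgrp1 was closest to Zfp821 (0.930), Lrp10 (0.922) and Coro2b (0.910), and Tespa1 to Kdm4a (0.928), Il12rb1 (0.906) and Cd27 (0.906). Plcg1 was closest to Kcnh3 (0.928), Rc3h2 (0.921) and Atp9a (0.921), Lat to Slc23a2 (0.915), Zfp740 (0.902) and Suv420h1 (0.900), and Lcp2 to RP23-42O8.9 (0.914), Sdccag3 (0.909) and Gimap1os (0.907). Zap70, whose level hardly varied, had the loosest companions, Tnfrsf25 (0.845), Sytl2 (0.830) and Glb1 (0.825).

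A list of 58 other genes of the pathway was counted in the same fit, of which 57 were tested. In OT-1 against TG6, 13 were higher and 7 lower early, 9 higher and 0 lower late, and 6 higher and 1 lower in mature cells, with list medians of 0.06, 0.12 and 0.05. These are 35.1%, 15.8% and 12.3% of the list, beside 27.8%, 15.5% and 9.74% of all genes, so that the late and mature shares are near the background. By role, the early calls were 6 higher and 1 lower of 19 adaptors and ubiquitin ligases, 3 higher and 0 lower of 7 phosphatases and partners, 2 higher and 2 lower of 6 kinases, and 2 higher and 4 lower of 23 exchange factors, lipid enzymes and downstream genes. Prkcq, the kinase that links diacylglycerol to NF-kB, had 4898 to 5283 counts in TG6 early, 6232 to 7213 in F5 and 9591 to 9757 in OT-1, with no overlap (OT-1 against TG6 0.91, adjusted p = 5.5e-07). Csk, which phosphorylates the inhibitory tyrosine of Lck, had 4600 to 4995, 5646 to 6305 and 7744 to 7911 in the same order (0.72, adjusted p = 1.5e-07). At the early stage both stand in the order of self-reactivity, the reverse of Themis and Plcg1 at that stage. In OT-1 against F5, Prkcq differed by -0.02 late (adjusted p = 0.91) and -0.06 in mature cells (adjusted p = 0.69), and in F5 against TG6 Csk differed by 0.05 in mature cells (adjusted p = 0.83).

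The phosphatase gene Ptpn6, which encodes Shp1, was higher in OT-1 early by 0.86 (adjusted p = 1.7e-04) and Ptpn2 by 0.85 (adjusted p = 2.0e-05). Ubash3b, a phosphatase that acts on Zap70, was higher by 1.28 early (adjusted p = 1.9e-05) and by 1.42 in mature cells (adjusted p = 1.7e-05), with 0.29 in late cells (adjusted p = 0.37), at 152.7 to 169.7 against 305 to 482 counts early. Lower in OT-1 early were Tec, a kinase that acts on Plcg1 (-1.14, adjusted p = 4.3e-04), and Cbl, a ubiquitin ligase (-0.71, adjusted p = 7.8e-04). The adaptor gene Lime1 was higher early by 0.73 (adjusted p = 0.0058) and Lax1 late by 0.74 (adjusted p = 0.0023).

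Downstream, Malt1, a protease of the NF-kB branch, exceeded its TG6 level in OT-1 cells of all 3 stages (0.69, 1.39 and 0.70, adjusted p = 0.0012, 2.7e-06 and 0.0034). Rasgrp2, a relative of Rasgrp1 that activates Rap1, rose from early to mature in all 3 lines (0.96 in TG6, 1.52 in F5 and 1.41 in OT-1, adjusted p = 4.4e-05, 2.7e-07 and 6.8e-07). It was higher in OT-1 late by 1.05 (adjusted p = 2.2e-04) and in mature cells by 0.64 (adjusted p = 0.012), the latter lost without OT-1 mature replicate 1 or 2 (adjusted p = 0.06 for both). Itpr1, the calcium channel opened by the product of Plcg1, was lower in OT-1 early (1956 to 2618 counts in TG6 against 860 to 975 in OT-1, -1.26, adjusted p = 2.7e-05) and higher late (0.89, adjusted p = 0.0048, or 0.055 without TG6 late replicate 1). In mature cells Itpr1 differed by 0.38 and was not called (adjusted p = 0.2). Of the relatives of Themis and Tespa1, none was called in OT-1 against TG6 at any stage, 2 of the 3 having been tested.

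**Figure D5:**
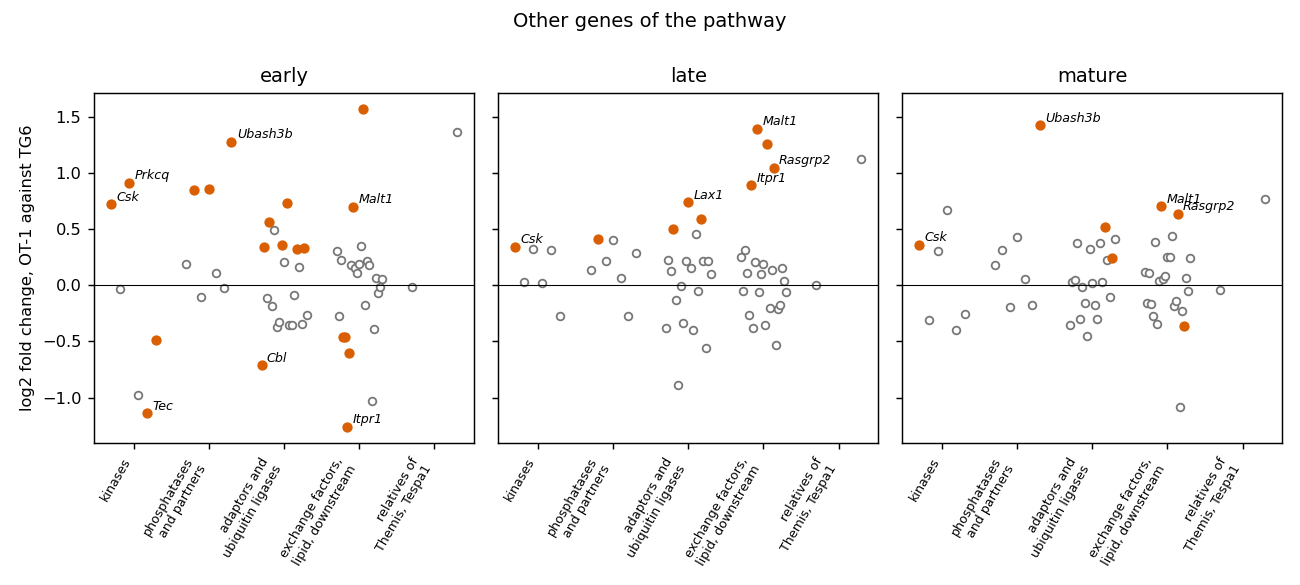
Log2 fold change in OT-1 against TG6 (y axis) of the 57 tested genes of the pathway list by role (x axis), in 1 panel for each stage; filled symbols passed the adjusted p threshold of 0.05, and names mark some of them. Filled symbols lie on both sides of 0 early (13 above, 7 below) and above 0 late (9).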

How the data were processed

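RNA-seq libraries of sorted thymocytes were made from 3 TCR transgenic lines at 3 stages. Per the submitters' processing notes, the authors used Trimmomatic 0.32, Bowtie2 2.3.2 and RSEM 1.2.31 with build mm10, and normalized with DESeq2. The values deposited by the authors are normalized counts per gene, a signal divided by a size factor, not raw counts. Between 39.3% and 43.1% of the values above 0 in a library were whole multiples of its commonest step (tolerance 0.001), so whole reads could not be recovered and no count test was run. The stated sequencing depth is 20 M reads per library, and how many reads lie behind each value cannot be read from the table.

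Values were analysed as log2(value + 1), so that fold changes of low genes are understated. Genes with at least 10 in at least 2 libraries were kept (16372 genes). A linear model with the 9 groups was fitted with limma 3.58.1 (R 4.3.3, trended prior variance, 17 residual degrees of freedom), and p-values were adjusted over all genes tested by the method of Benjamini and Hochberg for each comparison. The 9 comparisons between lines, 9 between stages and 3 differences of differences (mature minus early) were tested, each two-sided. The procedure was tested on simulated data. It returned the effects put in and called few unchanged genes, but of the genes changed most it called fewer than the bar first set, which was then lowered. The p-values measure the spread between these libraries, which are labelled biological replicates but are not tied to separate mice by the labels.

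All 9 members are named, with the 3 genes most like each and up to 12 called genes of the pathway list. A further 4 genes of that list were named after their values were seen. The members and lists were chosen with earlier results of these data known. Libraries of F5 with the same replicate number at different stages deviated together in 9 of 9 pairs (r 0.106 to 0.34), and the numbers were taken to pair them. In OT-1 5 of 9 pairs and in TG6 2 of 7 were over 0.1, and the numbers were not taken to pair them. By another measure, libraries correlated best with their own number in 17 of 18 cases in OT-1 and 11 of 14 in TG6. The main tests used no block in any line. Alternatives were other pseudocounts (0.1 and 5), a mean filter of 50, filtering nothing, scaling to the same total, quantile normalization, no variance trend, only the groups compared, a replicate block and leaving out each library. Promoters and motif shares came from RefSeq windows on GRCm38.p6, with 8 of 9 members matched.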

Additional observations from a re-analysis of the deposited data

Results flagged for a closer look

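The early to mature change was compared between lines by a test of the difference itself (limma). Themis fell less in OT-1 than in TG6, by 0.62 on the log2 scale (adjusted p = 0.0021), and less in F5 than in TG6, by 0.56 (adjusted p = 0.0055). Both contrasts share the TG6 libraries. Of the 57 genes of the pathway list, 3 were called in OT-1 against TG6. Prkcq differed by -0.60 (adjusted p = 0.014), a call lost only in a fit of the groups compared alone. Csk differed by -0.36 (adjusted p = 0.046), a call lost in 14 of 22 alternatives. Itpr1 differed by 1.64 (adjusted p = 4.6e-04), a call kept in 22 of 22 alternatives. In OT-1 against F5, which shares the OT-1 libraries, 2 were called, Prkcq (-0.62, adjusted p = 0.024) and Itpr1 (1.14, adjusted p = 0.025). In F5 against TG6, 5 were called, namely Ptpn2 (-0.64, adjusted p = 0.035) and, named after their values were seen, Cblb (-0.63, adjusted p = 0.013), Itpr2 (0.70, adjusted p = 0.037), Plcg2 (-1.76, adjusted p = 0.043) and Nck2 (1.07, adjusted p = 0.047). For the list genes, alternatives were run in OT-1 against TG6 only. The background shares of all genes called are 4.20%, 1.64% and 4.40% in the order of these comparisons.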

How the results depend on the processing

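Over the 9 members and 21 comparisons, 2825 of 3069 recomputed values kept their call, either called in the same direction or still not called, 188 lost the call, 56 gained it, and 0 changed sign in a call. Values that were not called could change sign, as did Rasgrp1 in late OT-1 against TG6 (0.09, range -0.24 to 0.13) and mature OT-1 against F5 (0.09, -0.10 to 0.22) and Tespa1 in early OT-1 against TG6 (0.07, -0.04 to 0.13). Of 341 recomputed counts of members called, 308 stayed within 1.5 times the main count and 33 moved. In mature OT-1 against TG6 the count of 5 became 2 with no filter, 2 with no variance trend and 0 in a fit of only the groups compared. That fit also gave 2 in place of 4 for mature OT-1 against F5, 0 in place of 1 for mature F5 against TG6, 1 in place of 7 for TG6 late to mature, 2 in place of 7 for F5 late to mature and 3 in place of 5 for F5 early to mature; it has fewer samples behind its variance. It also lost Fyn (adjusted p = 0.064) and Rasgrp1 (0.062) in early and Zap70 (0.062) and Lcp2 (0.05) in mature OT-1 against F5, and Lat early to late in F5 (0.16), and it added Lcp2 in early OT-1 against TG6 (0.044), Plcg1 in early OT-1 against F5 (0.042) and early to late in F5 (0.044), and Tespa1 early to late in TG6 (0.011) and OT-1 (0.029). The mature minus early difference of F5 against TG6 gave 2 in place of 1 with a mean of at least 50, with scaling to the same total and with quantile normalization. With scaling to the same total the median log2 fold change of all genes lay at -0.10, -0.07 and -0.13 in OT-1 against F5, beside 0.00, 0.00 and 0.01. Filtering nothing and using no variance trend each lost Lat and Plcg1 in late and Lck, Lcp2 and Rasgrp1 in mature OT-1 against TG6, Zap70 in early and Lcp2 in mature OT-1 against F5, Lcp2 early to late and Plcg1 late to mature in TG6, Lat early to late and Lat and Plcg1 late to mature in F5, and Lat early to mature in OT-1 (adjusted p 0.055 to 0.095). Filtering nothing also lost Rasgrp1 in early OT-1 against TG6 (0.052) and Lat late to mature in OT-1 (0.054). A pseudocount of 5 lost Lat in late OT-1 against TG6 (0.05) and early to mature in OT-1 (0.051). A mean of at least 50 added Themis early to late in OT-1 (0.04) and Tespa1 early to late in TG6 (0.043). Scaling to the same total lost Lcp2 early to late in TG6 (0.051), Lat early to late in F5 (0.075) and Plcg1 late to mature in F5 (0.053) and added Lck late to mature in OT-1 (0.031). Quantile normalization lost Plcg1 late to mature in F5 (0.054) and early to late in OT-1 (0.07). It also moved Plcg1 in late OT-1 against TG6 to -0.65 and Lck late to mature in TG6 to -0.59.

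Leaving out 1 library gave counts of 5 to 7, 1 to 4 and 0 to 5 for OT-1 against TG6 (early, late and mature), 2 to 5, 3 to 4 and 3 to 4 for OT-1 against F5, and 1 to 3, 1 and 1 to 2 for F5 against TG6. It gave 3 to 4, 4 to 7 and 6 to 7 in TG6 (early to late, late to mature, early to mature), 2 to 3, 5 to 7 and 5 in F5, and 2 to 4, 4 to 6 and 5 to 6 in OT-1. The differences of differences gave 1 for OT-1 against TG6, 0 for OT-1 against F5 and 1 to 2 for F5 against TG6. OT-1 against F5 early fell to 2 without F5 early replicate 2 or 3 or OT-1 early replicate 1 or 2.

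The replicate block, with the replicate number within a line as a random effect (estimated correlation 0.28) or a fixed effect, gave 2 in place of 1 for the mature minus early difference of F5 against TG6, Lat being added. Same-numbered libraries correlated best with their own number in 18 of 18 cases in F5, 17 of 18 in OT-1 and 11 of 14 in TG6. In the lines whose numbers were not taken to pair, the random block added Fyn early to mature (adjusted p = 0.024) and Lck late to mature (0.023) in OT-1, Themis (0.017) and Tespa1 (0.04) early to late in OT-1, and Lcp2 early to mature (0.019) and Tespa1 early to late (0.012) in TG6, and lost Lat (0.064) and Plcg1 (0.075) in late OT-1 against TG6. The fixed block added Rasgrp1 early to late in TG6 (0.046) and lost Plcg1 late to mature in TG6 (0.078). It could not be fitted between lines, since each number counts within 1 line. Apart from these and the F5 values given in the report, the block changed no other call of a member. The reads behind each value are not known, and 2 or 3 libraries a group limit every comparison.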
